A study of Homo sapiens with 24 samples.

Results

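The genes described here are 40 noncoding RNA genes of 61251 genes in the deposited table. They are 32 hosts of small nucleolar RNAs (snoRNAs), 6 nuclear or partly nuclear RNAs and 2 mainly cytoplasmic RNAs. The hosts are all genes with an SNHG symbol and a number, plus GAS5, ZFAS1, EPB41L4A-AS1 and DANCR. The nuclear RNAs are MALAT1, NEAT1, KCNQ1OT1, MEG3, FTX and TUG1, and the cytoplasmic ones are NORAD and OIP5-AS1. They were chosen by name and known location. The 24 RNA libraries came from KYSE450, a long-established human cell line grown from a squamous carcinoma of the oesophagus. The groups held 6 libraries each: drug tolerant persister (DTP) cells of the chemoresistant line, the chemoresistant line itself, DTP cells of the parental line, and the parental line. Persister cells are the cells of a tumour population that survive a drug without a resistance mutation. All 4 groups are labelled as wild type and as untreated when sampled, and no drug, dose or exposure time is named, although the titles of the chemoresistant libraries carry the name KYSE450DDP. The labels do not tell separate cultures from repeat libraries of one culture, so the p-values cover the spread between libraries only, and that spread may be technical.

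A snoRNA host gene carries snoRNAs in its introns, and splicing sets them free to guide the methylation and pseudouridylation of ribosomal RNA. The spliced exons that remain often have a short open reading frame with a premature stop. Ribosomes that read it expose the RNA to nonsense-mediated decay (NMD), so host RNAs such as GAS5 are known to build up when translation or NMD slows. Many host RNAs also start with a run of pyrimidines, a feature that in ribosomal protein mRNAs ties translation to growth signals. RNAs kept in the nucleus escape this route: NEAT1 is the scaffold of paraspeckles, MALAT1 sits in nuclear speckles, and KCNQ1OT1 silences imprinted genes around it. NORAD works in the cytoplasm, where it binds Pumilio proteins, and OIP5-AS1 is known in mouse to direct the decay of a microRNA.

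The libraries held between 14947379 and 37989452 reads, as worked back from the deposited values. All 10 squamous epithelial markers averaged at least 1 FPKM (fragments per kilobase of gene, scaled to library size) in every group. Fibroblast markers summed to 1.46 to 19.3 FPKM per library and endothelial ones to 0.0945 to 1.14, both with the highest sum in chemoresistant libraries. Leukocyte markers summed to at most 2.63 FPKM, with CD3E listed at 0 in all 24. The part of such cells in the results was not tested. Chemoresistant DTP library 2 stood apart: its genes deviated from their group means with an SD of 0.291 on the log2 scale, against 0.110 to 0.208 in the other 23. Parental DTP libraries 5 and 6 came next in their group, with 0.192 and 0.208. For the comparisons of DTP cells, counts of changed hosts are given with and without these libraries, and values for some members. Within a library, the deviations also ran with gene GC content (Spearman rho across genes, -0.64 to 0.655 by library). In bulk RNA, more cells of a kind and more RNA per cell cannot be told apart.

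The first bases of the transcripts are shown because the pyrimidine start is the sequence feature that host RNAs share with ribosomal protein mRNAs. Start sites of 34 of the 40 genes were found in RefSeq (GRCh38.p14). A start was counted as having the tract where the RefSeq start base is C and at least 4 pyrimidines (C or T) follow it, on the transcribed strand. By this reading 7 of 28 hosts (25.0%) had the tract, and 0 of 6 other members did. The same pattern was found at 4.07% of all 35116 promoters and at 42 of 75 promoters of ribosomal protein genes (56.0%). A match, or its absence, is a description of the letters at the RefSeq start and not a measured start. Each window holds 20 bases before the start and 30 from it, with the tract in capitals. The first 7 have it. The rest do not: SNHG1, SNHG8, EPB41L4A-AS1 and SNHG29 are hosts with large rises in parental DTP cells, and TUG1 and NORAD stand for the other RNAs.
SNHG4: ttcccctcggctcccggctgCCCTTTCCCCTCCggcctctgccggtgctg
SNHG5: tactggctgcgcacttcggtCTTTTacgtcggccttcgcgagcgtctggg
SNHG12: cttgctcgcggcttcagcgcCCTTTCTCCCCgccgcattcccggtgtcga
SNHG18: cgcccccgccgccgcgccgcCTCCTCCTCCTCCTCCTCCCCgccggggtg
SNHG19: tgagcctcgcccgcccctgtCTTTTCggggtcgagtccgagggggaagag
SNHG32: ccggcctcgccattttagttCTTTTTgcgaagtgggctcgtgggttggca
ZFAS1: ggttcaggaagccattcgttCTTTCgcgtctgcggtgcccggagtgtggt
SNHG1: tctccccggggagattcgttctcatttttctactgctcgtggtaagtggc
SNHG8: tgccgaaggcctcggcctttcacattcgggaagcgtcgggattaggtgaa
EPB41L4A-AS1: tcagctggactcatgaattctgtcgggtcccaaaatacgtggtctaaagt
SNHG29: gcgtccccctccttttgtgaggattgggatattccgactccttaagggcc
TUG1: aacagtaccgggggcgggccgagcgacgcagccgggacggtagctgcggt
NORAD: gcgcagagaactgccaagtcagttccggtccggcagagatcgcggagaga
These windows lie at chr5:139274081-139274130 (plus strand) for SNHG4, chr6:85678704-85678753 (minus) for SNHG5, chr1:28581844-28581893 (minus) for SNHG12, chr5:9546180-9546229 (plus) for SNHG18, chr16:2155329-2155378 (minus) for SNHG19, chr6:31834896-31834945 (plus) for SNHG32 and chr20:49278622-49278671 (plus) for ZFAS1. Those without the tract lie at chr11:62855856-62855905 (minus) for SNHG1, chr4:118278742-118278791 (plus) for SNHG8, chr5:112160506-112160555 (plus) for EPB41L4A-AS1, chr17:16438967-16439016 (plus) for SNHG29, chr22:30969245-30969294 (plus) for TUG1 and chr20:36050931-36050980 (minus) for NORAD.

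Of the 40 genes, 30 averaged 1 FPKM or more in some group, which was the condition for testing: 25 hosts, the nuclear RNAs MALAT1, NEAT1 and TUG1, and both cytoplasmic RNAs. Over the 24 libraries the hosts SNHG1 (mean 54.5 FPKM), SNHG19 (52.1) and GAS5 (42.9) stood highest, followed by the cytoplasmic NORAD (40.7). SNHG32 averaged 33.6 FPKM, TUG1 32.6, SNHG29 28.2, MALAT1 24.3, SNHG6 24 and NEAT1 20.9. These neighbours overlapped widely: SNHG1 ran from 37.2 to 99.0 FPKM and SNHG19 from 38.1 to 101. FPKM depends on the gene length used, and the deposited length equals the exonic length of the GENCODE 29 annotation for only 59.1% of the genes with a read that are in that release. For DANCR it is 10179 bases against 2285 exonic bases, for SNHG5 12604 against 2806, for ZFAS1 8315 against 2243 and for SNHG8 6608 against 923, so the levels of these hosts are low per deposited length. In reads scaled to library size alone (CPM), without length, NEAT1 (476), TUG1 (331) and NORAD (220) led, ahead of SNHG1 (216), MALAT1 (214) and GAS5 (208).

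The 10 untested genes stayed under 1 FPKM on average in every group. SNHG14, the long host of the Prader-Willi snoRNA clusters, ran from 0.192 to 0.465 FPKM over the 24 libraries but took 23197 reads in all, as its deposited length is 122609 bases. SNHG31 ran from 0.0777 to 0.607 FPKM and SNHG5 from 0.117 to 0.267. SNHG18, SNHG22, SNHG27 and SNHG28 took 28, 22, 1 and 15 reads over all libraries, so no difference was detectable at this depth. The imprinted KCNQ1OT1 had a lowest, median and highest level of 0.0492, 0.159 and 0.172 FPKM in chemoresistant DTP, 0.112, 0.131 and 0.145 in chemoresistant, 0.140, 0.161 and 0.171 in parental DTP and 0.121, 0.162 and 0.184 in parental libraries. All 4 groups overlapped for KCNQ1OT1, and its lowest value was in chemoresistant DTP library 2. FTX, a regulator of X inactivation, ran from 0.0696 to 0.206 FPKM, and the imprinted MEG3 from 0 to 0.0768.

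Parental DTP cells were first set against the parental line, the question being what changes in the persister state. Most host RNAs and all 5 other RNAs tested were higher in the persister cells. Of 25 hosts, 18 rose and 1 fell, and 5 of 5 other RNAs rose (limma on log2(FPKM + 1), Benjamini-Hochberg adjusted p under 0.05 over all genes tested). In this comparison 65.5% of all 13729 tested genes were called, 45.8% as higher and 19.7% as lower. The median log2 fold change was 0.31 over the hosts, 0.71 over the other RNAs and 0.14 over all tested genes. Relative log expression scaling, which takes the shift of all genes to 0.00, left 11 hosts higher and 2 lower and 4 of the other RNAs higher. Under it 4421 of 13668 tested genes were higher and 4438 lower. Without parental DTP libraries 5 and 6, 14 hosts rose and 1 fell, and 5 of the other RNAs rose. In that fit 5917 of 13747 tested genes were higher and 2682 lower. The libraries of both groups did not overlap for 15 of 25 hosts and 4 of 5 other RNAs, against 45.8% of all tested genes.

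SNHG1, host of 7 annotated snoRNAs (ENSG00000255717, chr11:62851988-62855914), is one of the hosts with the largest rise. Its lowest, median and highest levels were 79.7, 89.9 and 99.0 FPKM in parental DTP libraries, against 39.5, 42.3 and 46.1 in parental libraries. Every parental DTP library lay above every parental one, and the rise of SNHG1 was 1.05 on the log2 scale (SE 0.06, adjusted p = 6.45e-13). SNHG32 (ENSG00000204387, chr6:31834608-31839766), which GENCODE 29 lists as the coding gene C6orf48, was at 35.1, 37.5 and 46.7 FPKM in parental DTP and 16.2, 16.8 and 18.1 in parental libraries. The groups did not overlap, and the log2 fold change of SNHG32 was 1.17 (SE 0.10, adjusted p = 5.72e-10). SNHG8, host of SNORA24, averaged 7.40 ± 1.77 FPKM in parental DTP and 3.31 ± 0.194 in parental libraries (SD, n = 6 each, log2 fold change 0.94). Its parental DTP libraries 5 and 6, at 8.72 and 10.4 FPKM, were the highest, and the other 4 lay between 6.03 and 6.61, still above all parental libraries.

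GAS5, named for its rise in growth-arrested cells and the textbook example of a host RNA cleared by NMD, was at 36.7, 39.2 and 47.6 FPKM in parental DTP and 26.7, 28.0 and 30.2 in parental libraries. It rose by 0.53 on the log2 scale (SE 0.08, adjusted p = 1.48e-06). SNHG29 (34.7, 37.6 and 46.3 FPKM in parental DTP, against 20.8, 22.7 and 25.3 in parental libraries) rose by 0.74 (SE 0.07). Neither gene's groups overlapped. EPB41L4A-AS1, host of SNORA13, was at 3.78 ± 0.476 FPKM in parental DTP and 1.75 ± 0.190 in parental libraries (log2 fold change 0.80). Of its exonic bases, 49.6% also lie in EPB41L4A on the other strand, which stayed under 1 FPKM (0.214 ± 0.0227 in parental DTP and 0.0905 ± 0.0156 in parental libraries). SNHG11 (log2 fold change 0.51), SNHG30 (0.50), ZFAS1 (0.39), SNHG20 (0.32) and SNHG17 (0.31) rose with separate groups as well.

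Smaller rises were found in SNHG15 (17.9, 18.8 and 21.9 FPKM in parental DTP, against 13.4, 15.0 and 16.8 in parental libraries, log2 fold change 0.34), SNHG6 (0.32) and SNHG3 (0.29). SNHG6 was at 23, 25.5 and 29.1 FPKM in parental DTP and 19.2, 20 and 21.5 in parental libraries. SNHG3, which shares its locus with RCC1, was at 18.9, 20.1 and 23.3 FPKM in parental DTP and 14.8, 16.8 and 18.8 in parental libraries. All 3 calls ended under relative log expression scaling (0.17, 0.14 and 0.11). The rises of SNHG7 (0.25), SNHG21 (0.22), SNHG26 (0.19) and SNHG10 (0.13) also ended under that scaling. Leaving out 1 library ended the call of SNHG7 for 6 libraries (0.17 to 0.26), SNHG21 for 6 (0.14 to 0.22), SNHG26 for 11 (0.13 to 0.20) and SNHG10 for 7 (0.10 to 0.13). SNHG7 was at 12.8, 14.2 and 20.9 FPKM in parental DTP and 11.5, 12.6 and 14.3 in parental libraries, so the groups overlapped.

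SNHG12, host of SNORA16A, SNORA44, SNORA61 and SNORD99 (ENSG00000197989, chr1:28578538-28583132), was the only one of the 25 tested hosts that fell as the values were deposited. Its level was 2.57, 2.76 and 3.5 FPKM in parental DTP and 4.98, 5.34 and 5.86 in parental libraries, without overlap (log2 fold change -0.70, SE 0.06, adjusted p = 1.65e-10). SNHG4 was at 14, 15.4 and 16.3 FPKM in parental DTP and 15.2, 15.7 and 19.1 in parental libraries, a log2 fold change of -0.08 that did not pass. SNHG4 was called lower under relative log expression scaling (-0.26, adjusted p = 0.000874) and after GC correction (-0.28, adjusted p = 1.97e-05). SNHG16 was at 10.2, 11.3 and 12 FPKM in parental DTP and 9.08, 10.8 and 11.3 in parental libraries (0.09, not passed). DANCR was at 15.5, 17.3 and 18.4 FPKM in parental DTP and 14.4, 16.4 and 17.2 in parental libraries (0.09, not passed). SNHG19 was at 41.8, 43.7 and 64.9 FPKM in parental DTP and 38.1, 41.9 and 50.4 in parental libraries (0.16, not passed). These 4 hosts overlapped between the groups. SNHG9 (-0.17) and SNHG25 (-0.08), with at most 34 and 14 reads in any library, did not pass either.

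Among the hosts with the pyrimidine start shown above, the tested 5 moved apart from each other. SNHG32 and ZFAS1 rose in parental DTP cells, SNHG12 fell, and SNHG4 and SNHG19 did not pass. Their median log2 fold change was 0.16, against 0.32 over the 16 tested hosts whose RefSeq start lacks the tract. Of these 16, 14 rose, against 45.8% of all tested genes. The 16 include GAS5, whose RefSeq window (chr1:173869016-173869065, minus) lies outside the GENCODE 29 gene (chr1:173863900-173868882). Starts at other positions were not read, so the split holds for the RefSeq starts only.

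**Figure D1:**
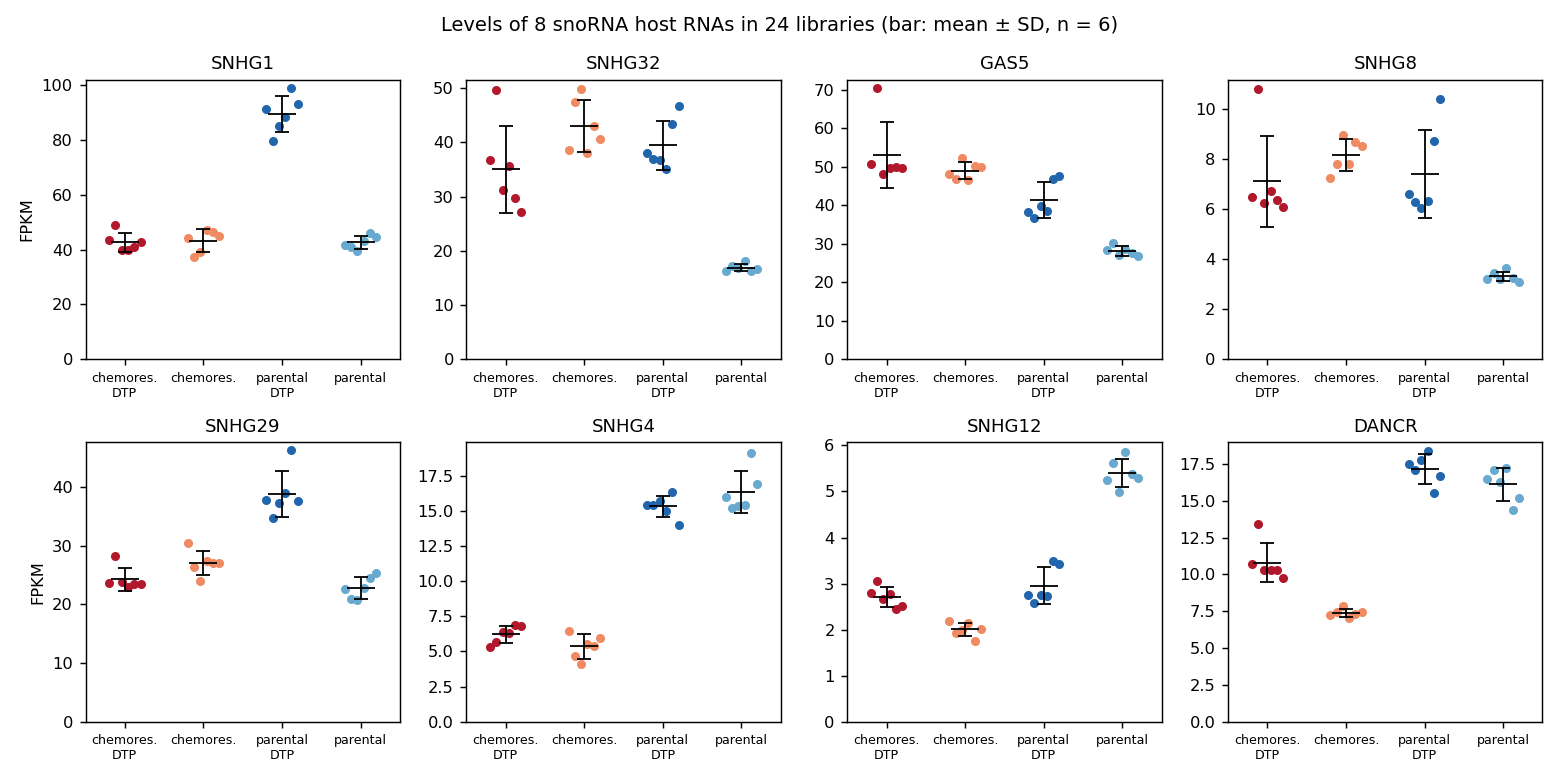
Level in FPKM (y axes, from 0) of 8 snoRNA host RNAs in each of the 24 libraries, by group. Points are libraries and bars are the mean ± SD of 6. SNHG1 stands at 79.7 to 99.0 FPKM in parental DTP libraries and at 37.2 to 48.9 in all others, while SNHG4 is at 4.07 to 6.84 in both groups of the chemoresistant line.

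The other RNAs rose too. NEAT1 (ENSG00000245532, chr11:65422774-65445540) was at 19.2, 22.1 and 25.6 FPKM in parental DTP and 5.81, 6.62 and 8.15 in parental libraries. The groups lay far apart, and its log2 fold change of 1.57 (SE 0.09, adjusted p = 1.87e-13) was the largest among the 30 members tested. TUG1 (ENSG00000253352, chr22:30969245-30979395) was at 31, 38.7 and 40.3 FPKM in parental DTP and 18.8, 21.4 and 25.7 in parental libraries (0.75, SE 0.13). NORAD was at 34.8, 36.9 and 44.3 FPKM in parental DTP and 25.5, 28.0 and 32.6 in parental libraries (0.39, SE 0.08). Neither TUG1 nor NORAD overlapped between the groups. OIP5-AS1 rose by 0.71 (SE 0.13), to 6.41 ± 0.845 FPKM in parental DTP, against 3.56 ± 0.842 in parental libraries.

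MALAT1 (ENSG00000251562, chr11:65497688-65506516) was at 29.3, 33.5 and 37.1 FPKM in parental DTP and 19.0, 22.2 and 33.4 in parental libraries. Its groups overlapped, with a log2 fold change of 0.45 (SE 0.14, adjusted p = 0.00774) that ended under relative log expression scaling (0.27). The 2 highest parental values, 33.4 and 31 FPKM, were those of libraries 5 and 6. These are also the parental libraries whose deviations ran against GC content (rho -0.54 and -0.559, against 0.183 to 0.488 in libraries 1 to 4). After a correction for gene GC content, chosen after the data were seen, the log2 fold change of MALAT1 was 0.29 (adjusted p = 0.014).

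**Figure D2:**
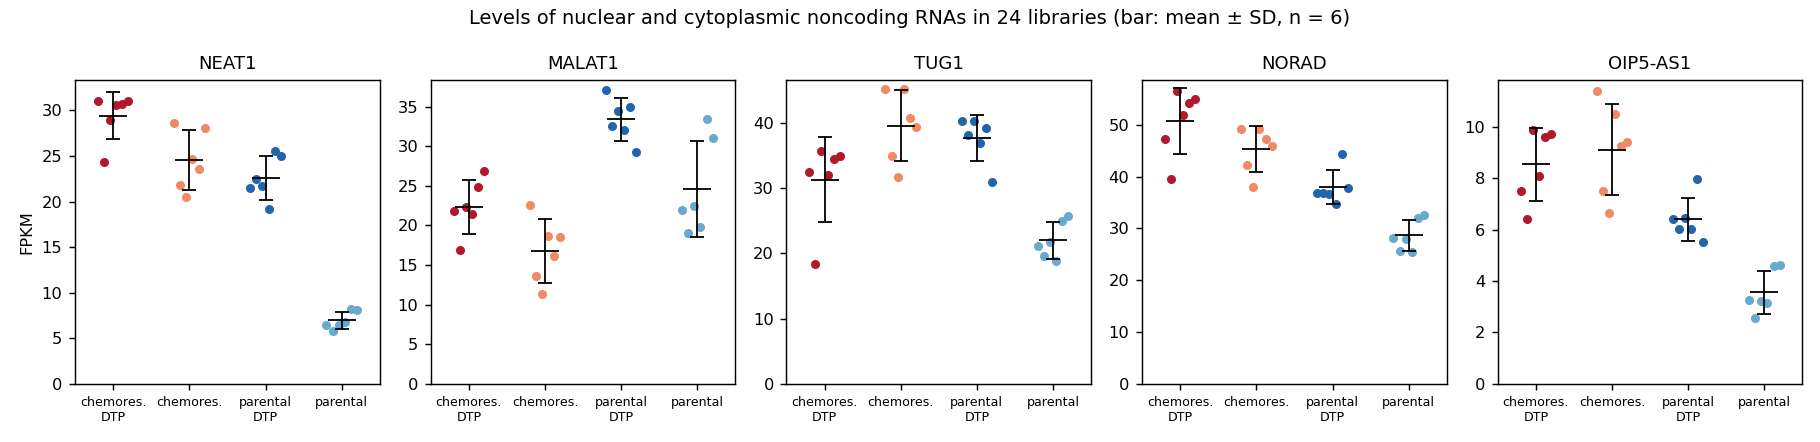
Level in FPKM (y axes, from 0) of the 3 tested nuclear RNAs (NEAT1, MALAT1, TUG1) and the 2 cytoplasmic RNAs (NORAD, OIP5-AS1) in each library, by group, with mean ± SD of 6. NEAT1 is at 5.81 to 8.15 FPKM in parental libraries and at 19.2 to 31 in the other 3 groups.

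The same question was put to DTP cells of the chemoresistant line. Here the host RNAs moved less and in both directions. Of 25 hosts, 5 rose and 5 fell (limma, adjusted p under 0.05), and of the 5 other RNAs 2 rose and 1 fell. Of all tested genes 48.0% were called, 20.5% as higher and 27.4% as lower. The median log2 fold change was -0.01 over the hosts, 0.16 over the other RNAs and -0.02 over all tested genes. Relative log expression scaling gave 7 hosts higher and 3 lower, and 3 of the other RNAs higher and 1 lower. Under it 3241 of 13668 tested genes were higher and 3447 lower. Without chemoresistant DTP library 2, 5 hosts rose and 9 fell, and 3 of the other RNAs rose and 0 fell. In that fit 3390 of 13754 tested genes were higher and 3851 lower. Without chemoresistant DTP library 6 the count of changed hosts was 6, while 2585 of 13721 tested genes were higher and 3684 lower. Without chemoresistant library 3 only 1 of the other RNAs was called, with a fall, while 2476 of 13737 tested genes were higher and 3726 lower. The groups did not overlap for 4 of 25 hosts and 0 of 5 other RNAs, against 27.8% of all tested genes.

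With all libraries, DANCR, host of SNORA26 and known for blocking differentiation in progenitor cells, had the largest rise among the members. Without chemoresistant DTP library 2 the log2 fold change was 0.48 for MALAT1 and 0.42 for DANCR. DANCR was at 9.74, 10.3 and 13.4 FPKM in chemoresistant DTP and 7.05, 7.37 and 7.85 in chemoresistant libraries (log2 fold change 0.48, SE 0.06, adjusted p = 2.53e-07). SNHG3 was at 16.5, 17.6 and 21.7 FPKM in chemoresistant DTP and 13.1, 13.9 and 15.4 in chemoresistant libraries (0.33, SE 0.06). SNHG12 was at 2.44, 2.73 and 3.06 FPKM in chemoresistant DTP and 1.76, 2.00 and 2.18 in chemoresistant libraries (0.30, SE 0.06). The groups were separate for all 3. SNHG4 was at 5.29, 6.35 and 6.84 FPKM in chemoresistant DTP and 4.07, 5.47 and 6.45 in chemoresistant libraries, with overlap. SNHG16 was at 8.43, 9.33 and 9.92 FPKM in chemoresistant DTP and 7.88, 8.70 and 8.75 in chemoresistant libraries. The rises of SNHG4 (0.19, adjusted p = 0.0428) and SNHG16 (0.13, adjusted p = 0.049) were near the threshold. Their calls ended when any of 7 and of 17 libraries was left out (0.13 to 0.20 and 0.11 to 0.14).

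SNHG17 had the deepest fall, to 2.60 ± 0.0777 FPKM in chemoresistant DTP, against 3.67 ± 0.261 in chemoresistant libraries (log2 fold change -0.37, SE 0.05, adjusted p = 3.37e-06). SNHG32 was at 27.1, 33.5 and 49.6 FPKM in chemoresistant DTP and 38, 41.9 and 49.9 in chemoresistant libraries (-0.31, adjusted p = 0.0162). Its groups overlapped, and the call ended without chemoresistant DTP library 6 (-0.24) and under relative log expression scaling (-0.28). Without chemoresistant DTP library 2 the log2 fold change of SNHG32 was -0.41. SNHG11 (-0.29), EPB41L4A-AS1 (-0.22) and SNHG7 (-0.29) also fell. SNHG7 was at 7.56, 8.22 and 12.4 FPKM in chemoresistant DTP and 9.42, 11.2 and 12.2 in chemoresistant libraries, and its call ended when any of 6 libraries was left out (-0.27 to -0.25). It also ended under relative log expression scaling (-0.27, adjusted p = 0.0698) and after GC correction (-0.14, adjusted p = 0.183).

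SNHG1 was at 39.9, 41.9 and 48.9 FPKM in chemoresistant DTP and 37.2, 44.7 and 47.3 in chemoresistant libraries, a log2 fold change of -0.02 that did not pass. GAS5 was at 48.1, 49.8 and 70.5 FPKM in chemoresistant DTP and 46.6, 49.0 and 52.3 in chemoresistant libraries (0.10, not passed). The groups overlapped for both, and the value of 70.5 FPKM was that of chemoresistant DTP library 2. SNHG29 was at 22.9, 23.6 and 28.2 FPKM in chemoresistant DTP and 23.9, 27.0 and 30.5 in chemoresistant libraries (-0.15, not passed). SNHG19 was at 45.9, 52.5 and 101 FPKM in chemoresistant DTP and 43.5, 58.9 and 66.3 in chemoresistant libraries (0.02, not passed), again with library 2 as the highest. SNHG15 was at 11.8, 13.3 and 17.5 FPKM in chemoresistant DTP and 13.9, 15.3 and 17.0 in chemoresistant libraries (-0.15, not passed). SNHG6 was at 19.7, 22.8 and 31.8 FPKM in chemoresistant DTP and 23.8, 26.8 and 28.7 in chemoresistant libraries (-0.17, not passed). Without library 2 of the DTP group, SNHG6, SNHG8, SNHG15 and SNHG29 passed as lower (-0.26, -0.31, -0.22 and -0.19), and NORAD as higher (0.22). The remaining hosts, SNHG8 (-0.20), SNHG9 (0.31), SNHG10 (0.11), SNHG20 (-0.01), SNHG21 (-0.01), SNHG25 (-0.15), SNHG26 (0.16), SNHG30 (0.15) and ZFAS1 (0.01), did not pass. After GC correction SNHG9 was called higher at 0.47.

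Of the other RNAs, MALAT1 was at 16.9, 22.0 and 26.9 FPKM in chemoresistant DTP and 11.3, 17.3 and 22.6 in chemoresistant libraries (log2 fold change 0.41, adjusted p = 0.0217). The 2 lowest chemoresistant values, 11.3 and 13.6 FPKM, were those of libraries 3 and 2, with GC trends of 0.632 and 0.655. The call ended without chemoresistant library 2 (0.36) or 3 (0.31) and without chemoresistant DTP library 6 (0.35). NEAT1 was at 24.3, 30.6 and 31 FPKM in chemoresistant DTP and 20.5, 24.2 and 28.6 in chemoresistant libraries (0.26, adjusted p = 0.0191), a call that ended without chemoresistant library 3 (0.21). TUG1 was at 18.3, 33.5 and 35.7 FPKM in chemoresistant DTP and 31.8, 40.1 and 45.3 in chemoresistant libraries (-0.35, adjusted p = 0.0247). Its lowest value was that of chemoresistant DTP library 2, and the call ended without that library (-0.21) or without chemoresistant library 1 (-0.31) or 4 (-0.31). NORAD (39.5, 53.1 and 56.5 FPKM in chemoresistant DTP, 38, 46.6 and 49.3 in chemoresistant libraries, 0.16) and OIP5-AS1 (-0.08) did not pass. NORAD was called higher under relative log expression scaling (0.18) and OIP5-AS1 lower after GC correction (-0.17). All 5 overlapped between the groups.

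**Figure D3:**
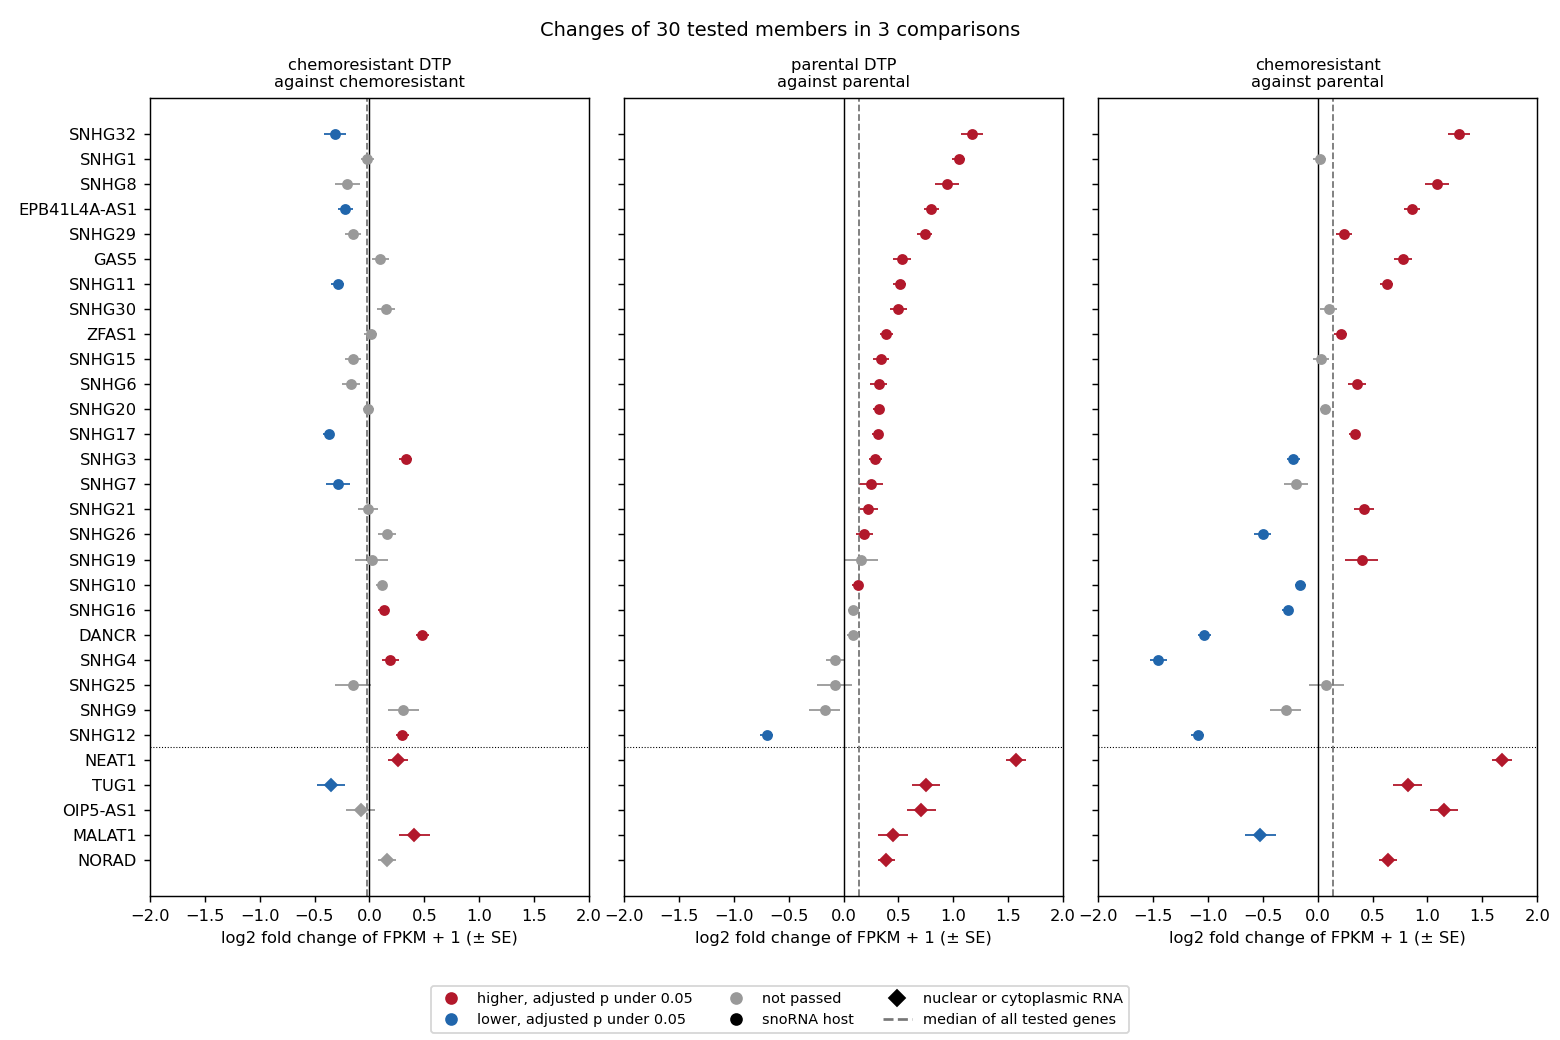
Log2 fold change of FPKM + 1 with its SE (x axes) for the 30 tested members (rows) in 3 comparisons. Circles are snoRNA hosts and diamonds the other RNAs, colour gives the call, and the dashed line is the median of all tested genes. Most hosts lie right of 0 for parental DTP cells (18 higher, 1 lower), around 0 for chemoresistant DTP cells (5 and 5), and on both sides for the chemoresistant line (11 and 7).

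The difference between the lines in the DTP change was tested as an interaction, chemoresistant minus parental. The DTP change was lower in the chemoresistant than in the parental line for 14 of 25 hosts and higher for 4, and lower for 3 of 5 other RNAs. Of all tested genes 63.8% were called, 20.5% as higher and 43.4% as lower. Median differences were -0.34 over the hosts, -0.79 over the other RNAs and -0.17 over all tested genes. Relative log expression scaling gave 6 hosts higher and 10 lower, with counts of 0 and 3 for the other RNAs. Under it 4272 of 13668 tested genes were higher and 4494 lower. Without chemoresistant DTP library 2, and likewise without parental DTP libraries 5 and 6, the difference was above 0 for 3 hosts and below 0 for 14. Of all tested genes 3132 of 13754 were higher and 6086 lower in the first of these fits. In the second, 2864 of 13747 were higher and 5851 lower. The largest negative differences were those of SNHG32 (-1.48, SE 0.15, adjusted p = 4.19e-09), NEAT1 (-1.32, SE 0.12), SNHG8 (-1.14, SE 0.16), TUG1 (-1.10, SE 0.18), SNHG1 (-1.07, SE 0.09) and EPB41L4A-AS1 (-1.02, SE 0.10). SNHG29 (-0.89), SNHG11 (-0.80), OIP5-AS1 (-0.79), SNHG17 (-0.68), SNHG7 (-0.54), SNHG15 (-0.50), SNHG6 (-0.49), GAS5 (-0.43), ZFAS1 (-0.38), SNHG30 (-0.34) and SNHG20 (-0.33) followed. After relative log expression scaling the calls of GAS5 (-0.23), SNHG7 (-0.34), SNHG15 (-0.30) and SNHG30 (-0.16) ended.

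The difference was positive for SNHG12 (1.00, SE 0.08, adjusted p = 1.37e-10), DANCR (0.40, SE 0.08), SNHG9 (0.48, adjusted p = 0.0326) and SNHG4 (0.28, adjusted p = 0.03). SNHG12 fell in parental DTP cells and rose in chemoresistant DTP cells. By the calls with all libraries, SNHG7, SNHG11, SNHG17, SNHG32, EPB41L4A-AS1 and TUG1 did the reverse, and SNHG3, MALAT1 and NEAT1 rose in both lines. Under relative log expression scaling the parental rises of SNHG7, SNHG3 and MALAT1 ended, as did the chemoresistant falls of SNHG7 and SNHG32. In the chemoresistant line the fall of TUG1 and the rises of MALAT1 and NEAT1 ended when single libraries were left out. The calls of SNHG9 and SNHG4 for the difference ended when any of 9 and of 6 libraries was left out (0.38 to 0.46 and 0.21 to 0.25). The differences of MALAT1 (-0.05), NORAD (-0.24), SNHG3 (0.04), SNHG10 (-0.02), SNHG16 (0.03), SNHG19 (-0.13), SNHG21 (-0.24), SNHG25 (-0.07) and SNHG26 (-0.03) did not pass. Under relative log expression scaling those of SNHG3 (0.24, adjusted p = 0.0206) and SNHG16 (0.23, adjusted p = 0.0189) passed.

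**Figure D4:**
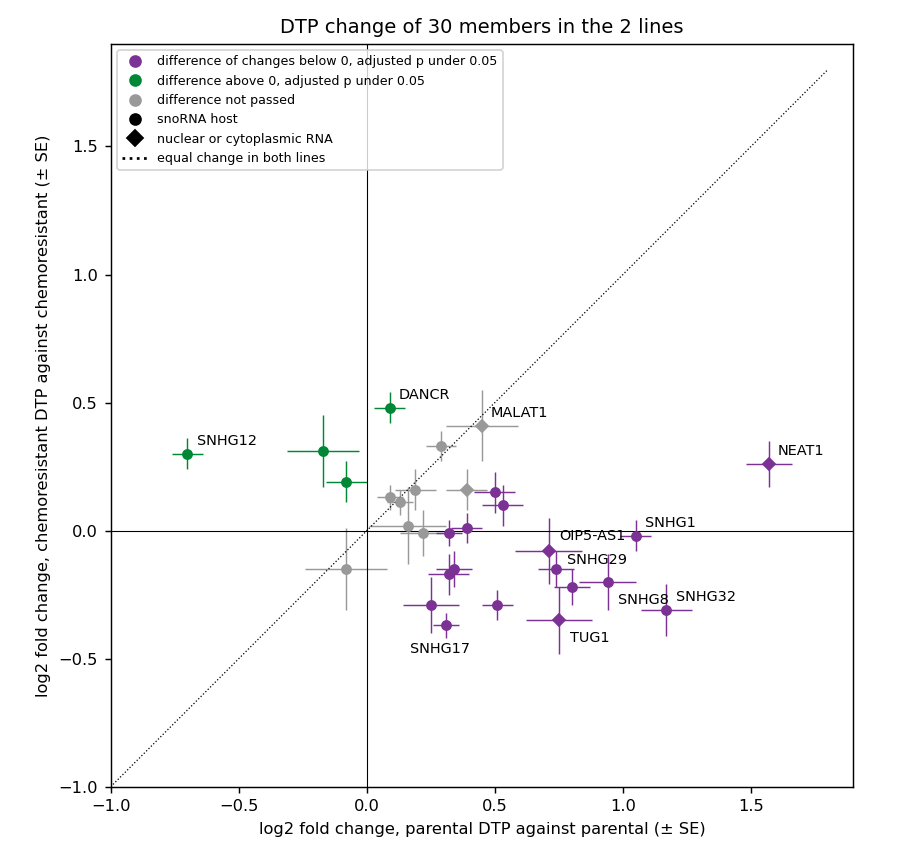
Log2 fold change of 30 members in DTP cells, for the chemoresistant line (y axis) against the parental line (x axis), each with its SE. Colour gives the test of the difference between the lines, and the dotted line marks equal change. NEAT1, SNHG32, SNHG1 and SNHG8 lie far to the right (1.57, 1.17, 1.05 and 0.94 in the parental line) and between -0.31 and 0.26 in the chemoresistant line, and SNHG12 lies to the left (-0.70).

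The comparison of chemoresistant with parental cells asked how the lines differ outside the persister state. It shares the parental libraries with the parental DTP comparison and the chemoresistant ones with the chemoresistant DTP comparison. Of 25 hosts, 11 were higher and 7 lower, and of the 5 other RNAs 4 were higher and 1 lower (limma, adjusted p under 0.05). Of all tested genes 77.5% were called, 48.2% as higher and 29.4% as lower. Medians were 0.08 over the hosts, 0.82 over the other RNAs and 0.14 over all tested genes. Under relative log expression scaling, which again brings the median of all genes to 0.00, the split of the hosts was 7 higher and 10 lower and that of the other RNAs 4 and 1. Under that scaling 5295 of 13668 tested genes were higher and 5318 lower. After GC correction the split was 9 hosts higher and 10 lower, against 5528 and 5374 of 13729 genes. The groups did not overlap for 13 of 25 hosts and 4 of 5 other RNAs, against 61.8% of all tested genes.

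Higher in the resistant line were SNHG32 (38, 41.9 and 49.9 FPKM in chemoresistant and 16.2, 16.8 and 18.1 in parental libraries, log2 fold change 1.29, SE 0.10) and GAS5 (46.6, 49.0 and 52.3 FPKM in chemoresistant and 26.7, 28.0 and 30.2 in parental libraries, 0.78, SE 0.08). SNHG8 (8.17 ± 0.653 FPKM in chemoresistant and 3.31 ± 0.194 in parental libraries) was higher by 1.09 and EPB41L4A-AS1 by 0.86. None of these 4 overlapped between the lines. SNHG11 (0.63), SNHG21 (0.42), SNHG6 (0.36) and SNHG17 (0.34) were higher with separate groups, and SNHG19 (0.40), SNHG29 (0.24) and ZFAS1 (0.21) with overlap. The calls of SNHG6 (0.19), SNHG19 (0.22), SNHG29 (0.06) and ZFAS1 (0.11) ended under relative log expression scaling. For SNHG21, 72.9% of the exonic bases are shared with a gene on the same strand, so its reads cannot be assigned with certainty.

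Lower in the resistant line were SNHG4 (4.07, 5.47 and 6.45 FPKM in chemoresistant and 15.2, 15.7 and 19.1 in parental libraries), SNHG12 (1.76, 2.00 and 2.18 against 4.98, 5.34 and 5.86) and DANCR (7.05, 7.37 and 7.85 against 14.4, 16.4 and 17.2). All 3 were separate by a wide margin. SNHG4 (ENSG00000281398, chr5:139274102-139284899), host of SNORA74A, had the most negative log2 fold change of the 30, -1.45 (SE 0.08, adjusted p = 1.29e-14). SNHG4 shares 14% of its exonic bases with MATR3 on the same strand. The log2 fold change was -1.09 (SE 0.06) for SNHG12 and -1.03 (SE 0.06) for DANCR. SNHG26 (-0.50), SNHG16 (-0.27), SNHG3 (-0.22) and SNHG10 (-0.16) were lower too. SNHG1 was at 37.2, 44.7 and 47.3 FPKM in chemoresistant and 39.5, 42.3 and 46.1 in parental libraries (0.02, not passed). SNHG7 (-0.20), SNHG9 (-0.29), SNHG15 (0.03), SNHG20 (0.07), SNHG25 (0.08) and SNHG30 (0.10) did not pass either. Under relative log expression scaling SNHG1 (-0.16, adjusted p = 0.0241), SNHG7 (-0.37, adjusted p = 0.00735) and SNHG9 (-0.40, adjusted p = 0.0152) were called lower. After GC correction SNHG7 (-0.48), SNHG9 (-0.60) and SNHG20 (-0.10) were called lower.

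NEAT1 was at 20.5, 24.2 and 28.6 FPKM in chemoresistant and 5.81, 6.62 and 8.15 in parental libraries, without overlap (log2 fold change 1.68, SE 0.09, adjusted p = 1.15e-14). OIP5-AS1 (1.15), TUG1 (0.82) and NORAD (0.64) were higher with separate groups as well. MALAT1 was lower, at 11.3, 17.3 and 22.6 FPKM in chemoresistant and 19.0, 22.2 and 33.4 in parental libraries (-0.52, SE 0.14, adjusted p = 0.00207). The groups overlapped, and after GC correction the log2 fold change of MALAT1 was -0.59 (adjusted p = 9.6e-06).

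Set against parental DTP cells, chemoresistant DTP cells had lower levels of most hosts that were called. Of 25 hosts, 1 was higher and 15 were lower, and of the 5 other RNAs 3 were higher and 1 lower. Of all tested genes 61.9% were called, 29.5% as higher and 32.3% as lower, and the groups did not overlap for 11 hosts and 1 other RNA, against 36.2% of all tested genes. Medians were -0.18 over the hosts, 0.36 over the other RNAs and -0.02 over all tested genes. Relative log expression scaling gave 1 host higher and 15 lower, and 3 of the other RNAs higher and 2 lower. Under it 4319 of 13668 tested genes were higher and 4231 lower. SNHG4 (5.29, 6.35 and 6.84 FPKM in chemoresistant DTP, against 14, 15.4 and 16.3 in parental DTP libraries) was lower by a log2 fold change of -1.18 (SE 0.08). SNHG1 (39.9, 41.9 and 48.9 against 79.7, 89.9 and 99.0 FPKM) was lower, with a log2 fold change of -1.05 (SE 0.06).

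SNHG7 (-0.74), SNHG29 (-0.65), DANCR (-0.63), SNHG26 (-0.53), SNHG15 (-0.47), SNHG17 (-0.34), SNHG20 (-0.26) and SNHG16 (-0.24) were lower without overlap of the libraries. SNHG30 (-0.24), SNHG11 (-0.18), SNHG10 (-0.18), ZFAS1 (-0.17) and SNHG3 (-0.17) were lower with overlap. The call of ZFAS1 ended without parental DTP library 5 (-0.13), and that of SNHG3 without that library (-0.14) or chemoresistant DTP library 1 (-0.15). GAS5 was the only host called as higher (0.35, SE 0.08, adjusted p = 0.000345), and its value without chemoresistant DTP library 2 was 0.27 (adjusted p = 0.000227). Without that library 2 hosts were higher and 18 lower, while 4386 of 13754 tested genes were higher and 4350 lower. Without parental DTP libraries 5 and 6 the counts of hosts were 3 and 13, while 4187 of 13747 tested genes were higher and 4433 lower. NORAD (0.41), NEAT1 (0.37) and OIP5-AS1 (0.36) were higher, MALAT1 was lower (-0.57, without overlap), and TUG1 (-0.28, adjusted p = 0.0527) did not pass, but did under relative log expression scaling (-0.26, adjusted p = 0.0406). SNHG6 (-0.13), SNHG8 (-0.05), SNHG9 (0.19), SNHG12 (-0.09), SNHG19 (0.27), SNHG21 (0.18), SNHG25 (0.01), SNHG32 (-0.19) and EPB41L4A-AS1 (-0.15) did not pass. Without chemoresistant DTP library 2, SNHG32 (-0.29), SNHG6 (-0.22) and EPB41L4A-AS1 (-0.21) passed as lower and SNHG21 (0.24) as higher.

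Read together by member, the hosts fell into different orders of the 4 groups. SNHG1 and SNHG29 were highest in parental DTP cells (means 89.5 ± 6.68 and 38.8 ± 3.96 FPKM). SNHG1 lay between 37.2 and 48.9 FPKM in the other 3 groups, where neighbouring groups overlapped. For SNHG32, SNHG8 and EPB41L4A-AS1 the parental libraries were the low group, and the other 3 groups overlapped. SNHG4 and DANCR were split by line: all 12 libraries of the chemoresistant line, at 4.07 to 6.84 FPKM for SNHG4 and 7.05 to 13.4 for DANCR, lay below all 12 of the parental line. Within the chemoresistant line the DTP libraries of DANCR (9.74 to 13.4) also lay above the others (7.05 to 7.85). For NEAT1, as for SNHG32, the parental libraries were the low group (5.81 to 8.15 FPKM), but the order of the other 3 group means differed between these genes.

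Most snoRNAs inside the hosts had no read in these libraries. GENCODE 29 places 144 entries of snoRNAs or the related small Cajal body RNAs within the host genes. Some loci are listed more than once, and no entry lies within GAS5. Of 50 that overlap an exon of their host, 0 had at least 10 reads over the 24 libraries, and 1 had any read. Of 94 that do not, 11 had at least 10 reads. Leaving out the repeats in SNHG14, the counts were 0 of 37 and 11 of 23. SNORD104 in SNHG25 had the most, 1885 reads, followed by SNORA73B in SNHG3 (505), SNORD93 in SNHG26 (436), SNORA71B in SNHG17 (338) and SNORD99 in SNHG12 (179). How reads in overlapping genes were assigned is not given in the sources used here. A library of long RNA recovers few mature snoRNAs, so their amounts were not measured.

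Genes of the same pathways were read from lists, by counts and medians only. As the background, 45.8% of all tested genes were higher and 19.7% lower in parental DTP cells, 20.5% and 27.4% in chemoresistant DTP cells, and 48.2% and 29.4% in chemoresistant against parental cells. A pair of counts in brackets is that under relative log expression scaling. Under that scaling 4421 of 13668 tested genes were higher and 4438 lower in parental DTP cells. The counts were 3241 and 3447 in chemoresistant DTP cells, and 5295 and 5318 in chemoresistant against parental cells. Of the core proteins of snoRNA particles (FBL, NOP56, NOP58, SNU13, DKC1, NHP2, NOP10 and GAR1), 0 of 8 rose and 3 fell in parental DTP cells (0 and 6, median -0.12). They were NOP56 (-0.71), DKC1, the pseudouridine synthase (-0.58), and FBL, the methyltransferase fibrillarin (-0.27). In chemoresistant DTP cells 5 of 8 rose and 0 fell (5 and 0, median 0.29), led by NOP58 (0.62), DKC1 (0.60) and NOP56 (0.56). In chemoresistant against parental cells 0 were higher and 6 lower (0 and 7, median -0.37), with NOP56 at 37.6 ± 1.97 FPKM in chemoresistant and 96.0 ± 2.17 in parental libraries (SD, n = 6 each).

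Of 10 assembly factors of these particles, 1 rose and 7 fell in parental DTP cells (0 and 7), against 45.8% and 19.7% of all tested genes. In chemoresistant DTP cells 8 rose and 0 fell (9 and 0), against 20.5% and 27.4%, and in chemoresistant against parental cells 0 were higher and 8 lower (0 and 8), against 48.2% and 29.4%. NOLC1, a nucleolar chaperone of the particles, had log2 fold changes of -0.70, 0.74 and -1.37 in these comparisons.

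Protein-coding hosts of snoRNAs were a list of 28 genes, mostly of ribosomal proteins, translation factors and chaperones, with some nucleolar and other genes. NOP56 and DKC1 stand in this list as well as among the core proteins. In parental DTP cells 7 rose and 7 fell (3 and 11), against 45.8% and 19.7% of all tested genes. HSPA8, the constitutive HSC70, had a log2 fold change of -3.20 and NCL, nucleolin, of -1.07. In chemoresistant DTP cells 14 rose and 3 fell (15 and 2), with NCL at 0.94. In chemoresistant against parental cells 8 were higher and 15 lower (0 and 15).

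Factors of NMD and of the exon junction complex gave 9 rises and 4 falls of 22 in parental DTP cells, near the 45.8% and 19.7% of all tested genes, and the split turned to 4 and 9 under relative log expression scaling. EIF4A3, a core subunit of the exon junction complex, fell by 0.80 (SE 0.11), and UPF3B, which links that complex to UPF1 and UPF2, rose by 0.58 (SE 0.09). In chemoresistant DTP cells 8 rose and 4 fell (8 and 4), with EIF4A3 at 0.47 and RNPS1 at -0.67. In chemoresistant against parental cells 6 were higher and 10 lower (4 and 13), including GSPT1, the release factor eRF3a (-0.63), and the exonuclease XRN1 (0.62).

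Of 14 coding genes known as NMD-sensitive, 8 rose and 2 fell in parental DTP cells (7 and 4, median 0.35), against 45.8% and 19.7% of all tested genes. In chemoresistant DTP cells 8 rose and 0 fell (8 and 0, median 0.25), and in chemoresistant against parental cells 5 were higher and 7 lower (5 and 8). The largest rises in parental DTP cells were those of ATF3 (2.79), DDIT3 (2.51) and GADD45A (1.5), genes that stress pathways are also known to induce. The splicing kinase CLK1 rose by 0.92.

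Of 11 tested proteins of the paraspeckles that NEAT1 scaffolds, 1 rose and 7 fell in parental DTP cells (0 and 10), against 45.8% and 19.7% of all tested genes. RBM14 (-0.78), SFPQ (-0.78), CPSF6 (-0.34) and TARDBP (-0.27) were among those that fell. The counts in chemoresistant DTP cells were 3 rises and 5 falls (3 and 5). In chemoresistant against parental cells 0 were higher and 9 lower (0 and 11), with NONO at 36.6 ± 0.607 FPKM in chemoresistant and 69.1 ± 0.744 in parental libraries (-0.90). Of 10 nuclear speckle proteins, 0 rose and 4 fell in parental DTP cells (0 and 8), 3 rose and 2 fell in chemoresistant DTP cells (3 and 2), and 0 were higher and 8 lower in chemoresistant against parental cells (0 and 10). SRRM1, a speckle protein, had a log2 fold change of -0.89 there. Of 16 nuclear RNA decay factors, 5 rose and 5 fell in parental DTP cells (3 and 9), 8 rose and 1 fell in chemoresistant DTP cells (9 and 1), and 4 were higher and 7 lower in chemoresistant against parental cells (2 and 9). The nuclear exonuclease XRN2 had a log2 fold change of -1.45 in the resistant line.

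Each of 11 members was paired with a neighbouring gene, and in 9 pairs both genes were tested. In parental DTP cells both genes passed in 7 pairs, 2 with the same sign and 5 with opposite signs. GAS5 (0.53) rose with ZBTB37 (0.33), and SNHG1 (1.05) with SLC3A2 (0.24). ZFAS1 rose (0.39) and ZNFX1 fell (-0.38), OIP5-AS1 rose (0.71) and OIP5 fell (-0.35), and SNHG12 fell (-0.70) and TRNAU1AP rose (0.36). RCC1, which shares exons with SNHG3, fell by 0.20 while SNHG3 rose by 0.29, and FRMD8 fell (-0.20) while NEAT1 rose. In chemoresistant DTP cells 3 pairs passed, 2 of them with the same sign. In chemoresistant against parental cells 8 passed, 5 with the same sign and 3 with opposite signs, including DANCR (-1.03) with USP46 (0.70). Counting by strand is not stated, so reads in the shared stretches of such pairs cannot be told apart.

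Histone content differed between some of the groups. The GC trend of a library was taken from deviations within its group, so it cannot show a difference between groups. Histone mRNAs mostly lack a poly(A) tail, but forms with and without a tail were not told apart here. Over 12 genes they summed to 70.3 to 78.9 FPKM in chemoresistant DTP and 71.6 to 77.3 in chemoresistant libraries. The sums were 37.3 to 45.6 FPKM in parental DTP and 16.7 to 22.9 in parental libraries. In parental DTP cells 7 of 9 tested rose and 0 fell, against 45.8% and 19.7% of all tested genes, and in chemoresistant against parental cells 9 of 9 were higher, against 48.2%. The tested other RNAs had a median GC content of 41.6%, against 49.3% for the tested hosts and 48.7% for all tested genes with a value. Levels of members of both kinds varied within a group along the GC trend of the libraries. OIP5-AS1 was at 10.5 and 11.4 FPKM in chemoresistant libraries 4 and 1 (rho -0.629 and -0.64) and at 6.66 and 7.51 in libraries 3 and 2 (0.632 and 0.655). The host SNHG4 was at 5.54 and 6.45 FPKM in libraries 4 and 1 and at 4.07 and 4.69 in libraries 3 and 2. The host SNHG26 was at 2.56 and 2.72 FPKM in libraries 4 and 1 and at 1.96 and 1.98 in libraries 3 and 2. The part of histone content and of the GC trend in the group differences was not tested beyond the GC correction, under which 87 of 101 called changes of members held.

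**Figure D5:**
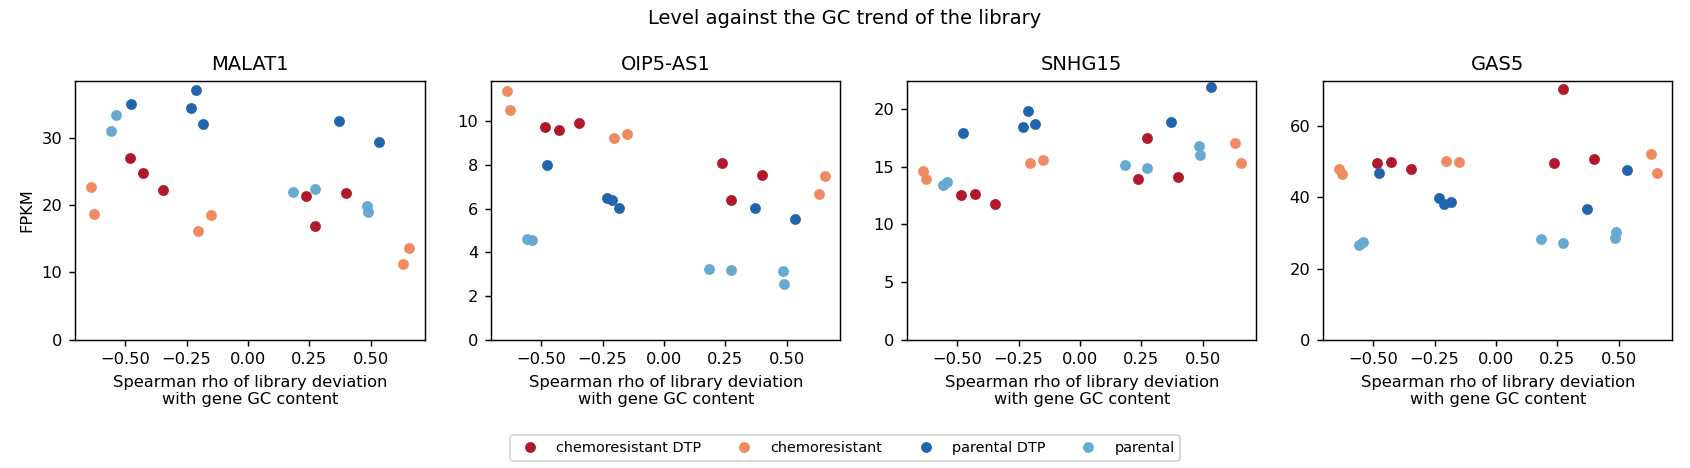
Level in FPKM (y axes, from 0) of 4 members against the GC trend of the library (x axes, Spearman rho across genes between a library's deviation from its group mean and gene GC content). Points are libraries, coloured by group. MALAT1 and OIP5-AS1 are lower within a group where the trend is positive (parental libraries 19.0 to 22.4 FPKM of MALAT1 at positive rho and 31 to 33.4 at negative rho), SNHG15 runs the other way in parental libraries (14.9 to 16.8 FPKM at positive rho and 13.4 to 13.7 at negative rho), and GAS5 lies within 46.6 to 52.3 FPKM over all chemoresistant libraries.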

How the data were processed

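Total RNA of 24 libraries was sequenced, and the authors deposited FPKM per gene and library in 1 table, per the file headers, mapped to GRCh38 per the submitters' processing notes. Aligner, annotation, strand setting, RNA selection and batches: not given in the sources used here. For all 41101 genes above 0 the FPKM gave whole reads (tolerance 0.02 reads), which gave the library totals. 23 broken rows were left out. Precision is limited by the spread between libraries. No pair of libraries of 1 group agreed within sampling noise.

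The 13729 genes that averaged 1 FPKM or more in some group were fitted as log2(FPKM + 1) in limma 3.58.1 (R 4.3.3), with 4 group means over all 24 libraries, trend, and Benjamini-Hochberg adjustment at 0.05. A fold change is on this scale and understates that of low genes. The fit was also run on simulated data with few changed genes and without GC trends or deviant libraries. That run does not cover these features of the data. Alternatives were relative log expression scaling, other pseudocounts and filters, CPM, voom on recovered reads, GC correction, a replicate block and leaving out libraries. Over 36 pairs of same-numbered libraries of different groups, the median r of the deviations was 0.03 (-0.385 to 0.403). For 180 pairs with other numbers it was -0.012. In 12 of the 36 pairs r was over 0.1. Library 2 had a positive GC trend in every group (0.274 to 0.655) and library 5 a negative one (-0.54 to -0.203). The other numbers had trends of both signs. The median thus does not settle whether the numbers pair some libraries, and the main fit used no pairing. Start sequences come from RefSeq (GRCh38.p14) and gene positions from GENCODE 29.

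All tested members are named, with values for those reaching 10 FPKM and for MALAT1, NEAT1 and KCNQ1OT1. Of other lists, up to 4 genes per comparison with the largest change are named. Members and lists were chosen with earlier results of these data known.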

Additional observations from a re-analysis of the deposited data

Results flagged for a closer look

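Of 120 sets of 6 libraries (30 members in 4 groups), 19 had a library whose distance to the nearest other exceeded Dixon's critical share of the range of the set, where chance alone gives about 1 in 20. Of these, 12 were chemoresistant DTP library 2. It was highest for DANCR (13.4 FPKM, others 9.74 to 10.7), EPB41L4A-AS1 (4.32, others 3.00 to 3.26), GAS5 (70.5, others 48.1 to 50.8), SNHG19 (101, others 45.9 to 57.9), SNHG29 (28.2, others 22.9 to 23.8) and SNHG3 (21.7, others 16.5 to 18.3). It was also highest for SNHG6 (31.8, others 19.7 to 23.3), SNHG7 (12.4, others 7.56 to 9), SNHG8 (10.8, others 6.09 to 6.71) and ZFAS1 (1.66, others 1.44 to 1.48). It was lowest for NEAT1 (24.3, others 29 to 31) and TUG1 (18.3, others 32.1 to 35.7). Among the flagged members, 10 host RNAs were thus high and 2 nuclear RNAs low in this library. Hosts that were not flagged went both ways: SNHG20, SNHG21 and SNHG26 were lowest in it, and SNHG1 and SNHG15 highest.

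Parental DTP library 5 was highest for NORAD (44.3 FPKM, others 34.8 to 37.9), SNHG26 (5.62, others 3.96 to 4.49) and SNHG29 (46.3, others 34.7 to 39.0). Parental DTP library 6 was highest for SNHG11 (3.25, others 2.72 to 2.90) and SNHG21 (3.24, others 1.70 to 2.25), and lowest for TUG1 (31, others 37.0 to 40.3). Parental library 5 was highest for SNHG30 (6.83 FPKM, others 5.87 to 6.19).

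By the limma interaction term the DTP log2 fold change differed between the lines for 21 of 30 tested members. Of all tested genes 63.8% were called by this term. The difference is given as chemoresistant minus parental. It was below 0 for SNHG32 (-1.48), NEAT1 (-1.32), SNHG8 (-1.14), TUG1 (-1.10), SNHG1 (-1.07), EPB41L4A-AS1 (-1.02), SNHG29 (-0.89), SNHG11 (-0.80), OIP5-AS1 (-0.79), SNHG17 (-0.68), SNHG7 (-0.54), SNHG15 (-0.50), SNHG6 (-0.49), GAS5 (-0.43), ZFAS1 (-0.38), SNHG30 (-0.34) and SNHG20 (-0.33). It was above 0 for SNHG12 (1.00), SNHG9 (0.48), DANCR (0.40) and SNHG4 (0.28).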

How the results depend on the processing

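Of 101 called changes of members, 72 kept their direction and their side of the threshold under every alternative run, and 18 ended under relative log expression scaling. Under GC correction 13 ended and 1 turned, SNHG26 in parental DTP cells (-0.01). A filter of 5 FPKM, which tests fewer genes, left 11 changed hosts for parental DTP against parental, 11 for chemoresistant against parental and 10 for chemoresistant DTP against parental DTP. With no filter 1 of the other RNAs was called for chemoresistant DTP against chemoresistant. Leaving out 1 library gave 6 to 14 changed hosts and 1 to 3 other RNAs in that comparison, 15 to 19 hosts for parental DTP against parental, 18 to 20 for chemoresistant against parental, 14 to 20 for chemoresistant DTP against parental DTP and 16 to 18 for the difference between the lines. The cause was not tested. With the replicate number as a block, the changed hosts and other RNAs numbered 17 and 5 (parental DTP against parental), 9 and 3 (chemoresistant DTP against chemoresistant), 18 and 5 (chemoresistant against parental), 16 and 5 (chemoresistant DTP against parental DTP) and 18 and 4 (difference), and 3 calls ended. The planned count-model fits with edgeR and DESeq2 were not run; voom was run on the recovered reads. The difference between the lines has no fit of only 2 groups. Hosts with few reads, such as SNHG25 and SNHG9, are limited by depth.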
